A study of Rattus norvegicus with 8 samples.

Results

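The genes described here are 2 xenobiotic-sensing nuclear receptors, 2 drug-metabolising enzymes and 5 drug efflux transporters of the rat colon. The 9 genes are Nr1i2, Nr1i3, Cyp3a9, Sult1b1, Abcb1a, Abcb1b, Abcg2, Abcc2 and Abcc3, and every probe whose gene name on the array equals one of these symbols was taken, whatever its signal. They carry 12 of the 30367 probes of the array. Of the 9 genes, 7 had a probe that cleared background on both arrays in 1 group or more and entered the fit of 18171 genes. Abcb1a and Abcc2 did not.

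The rats were female, of the Wistar strain and 14 weeks old, and ate their diets for 8 weeks. The diet of the ALA colitis group was enriched with α-linolenic acid (ALA), an n-3 fatty acid of plants. In the fish oil colitis group it was enriched with fish oil, a source of long-chain n-3 fatty acids, and in the n-6 colitis group with sunflower oil, which is rich in n-6 fatty acids. These 3 groups of 10 rats received the epithelium-damaging polymer dextran sulfate sodium (DSS) at 5% for 7 days. The healthy group of 6 rats ate the sunflower oil diet without DSS. ALA and fish oil were given with colitis only, so diet and colitis differ together wherever these groups are set against healthy rats. Colon RNA of 6 rats was pooled, and each group has 2 one-colour arrays. A pool of 6 from a group of 6 holds every healthy rat, and whether the colitis arrays of 1 group share rats or a pool is not stated. The p-values therefore measure the spread between arrays, which may be technical. The sample descriptions of the colitis groups also read colon of a healthy rat, and the groups here follow the titles, which name colitis. The study set ALA and fish oil each against the n-6 diet in colitis.

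The pregnane X receptor (PXR, gene Nr1i2) and the constitutive androstane receptor (CAR, gene Nr1i3) are nuclear receptors that bind drugs, bile acids and microbial products, pair with retinoid X receptors and switch on genes that oxidise, conjugate and export foreign compounds. In the gut lining, cytochromes of the CYP3A family oxidise such compounds, sulfotransferases make them water-soluble, and ATP-driven pumps of the ABC family move them back to the lumen or on to the blood. In mice, drugs that activate PXR ease DSS colitis, and mice without Abcb1a can develop colitis spontaneously.

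All 8 arrays lay on 1 slide, with between 54% and 70.1% of probes well above background. A level is the log2 signal minus the array's own 75th percentile, so a difference of 1 is a doubling. Levels of different probes are not set against each other, since probes differ in brightness. All 12 epithelial markers and all 8 smooth muscle markers were well above background on every array. Of 10 hepatocyte markers, 4 were above background on no array and 2 on all of them. The ALA and healthy arrays lay in slide row 1 and the others in row 2, and the ALA and fish oil arrays in columns 1 and 2, the others in columns 3 and 4. In each comparison of 2 groups, slide row, column or both therefore cannot be told apart from the group. One array stood apart. On n-6 colitis replicate 1, all 12 epithelial markers had their lowest level of the 8 arrays, with a median of 3.40, against 4.97 on n-6 colitis replicate 2 and 4.40 to 5.17 on the other arrays. Of all genes tested, 21.8% had their lowest level on that array. Results that rest on it are given below with and without it.

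The 4 probes below are printed because the readings of Abcb1b and Nr1i3 depend on which probe is taken. The positions are those of the array files, on rat build rn4. The Abcb1b probe A_64_P010925 (chr4:21912155-21912214, + strand) and A_64_P039888 (chr4:21912180-21912239, + strand) overlap by 35 bases, shown in capitals. Both lie at the end of the coding sequence, and the overlap closes with the stop codon.
A_64_P010925: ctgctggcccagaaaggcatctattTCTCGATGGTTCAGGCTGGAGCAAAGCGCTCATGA
A_64_P039888: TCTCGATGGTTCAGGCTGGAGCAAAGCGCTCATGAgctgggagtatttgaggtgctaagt
The Nr1i3 probes A_64_P109496 (chr13:87107518-87107577, + strand) and A_64_P109497 (chr13:87108479-87108538, + strand) share no bases, and the array files assign them to different RefSeq transcripts of the gene.
A_64_P109496: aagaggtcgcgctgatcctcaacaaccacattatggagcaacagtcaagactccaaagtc
A_64_P109497: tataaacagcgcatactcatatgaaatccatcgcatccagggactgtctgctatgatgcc

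Nr1i2, the PXR gene (probe on chr11:64276642-64276701, + strand), was well above background on all 8 arrays. Its levels were 4.42 and 3.46 on the ALA colitis arrays, 5.01 and 4.51 on the fish oil colitis arrays, 1.79 and 4.32 on the n-6 colitis arrays, and 3.88 and 3.71 on the healthy arrays. Both fish oil arrays lay above every other array, and n-6 replicate 1 lay far below the rest while n-6 replicate 2 did not. The means were 3.94 ± 0.674 in ALA colitis, 4.76 ± 0.353 in fish oil colitis, 3.05 ± 1.79 in n-6 colitis and 3.79 ± 0.12 in healthy rats (SD, n = 2 each). The order of the means was fish oil, ALA, healthy and n-6, and no neighbours in it differed beyond the spread. Fish oil colitis lay 1.71 above n-6 colitis (log2, SE 0.783, limma adjusted p = 0.428) and 0.97 above healthy colon (SE 0.783, limma adjusted p = 0.994). With n-6 replicate 1 left out the difference of fish oil from n-6 was 0.44, and that of n-6 from healthy was 0.53 in place of -0.74. Nr1i2 is thus a gene expressed in all 4 groups whose low n-6 mean rests on 1 array.

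Nr1i3, the CAR gene, gave a faint signal. On probe A_64_P109497, used in the fit, it had -1.81 and -4.89 on the ALA colitis arrays, -3.36 and -2.44 on the fish oil colitis arrays, -5.47 and -5.13 on the n-6 colitis arrays, and -2.45 and -3.91 on the healthy arrays. It was well above background on 6 of 8 arrays, the exceptions being both n-6 arrays, which were also the lowest. The ALA arrays lay 3.08 apart, the widest gap between arrays of 1 group for this gene. By the group means, Nr1i3 was 5.29-fold higher in fish oil colitis than in n-6 colitis (-2.90 and -5.30, limma adjusted p = 0.409). In ALA colitis it was 3.87-fold higher than in n-6 colitis (-3.35 and -5.30, limma adjusted p = 0.889). It was 4.35-fold lower in n-6 colitis than in healthy colon (-5.30 and -3.18, limma adjusted p = 0.391). None of these passed the threshold. The ALA value rests on ALA replicate 1, since the log2 difference of ALA colitis from n-6 colitis was 1.95 with it and 0.41 without it. Normexp background correction adds an offset of 50 to every signal. With it the log2 differences were 0.97 for fish oil over n-6 colitis, 0.62 for ALA over n-6 colitis and -0.43 for n-6 colitis over healthy. The folds above thus hold for the processed signal and not under that correction. The folds are estimates from faint n-6 signals and not lower limits. The n-6 signals of -5.47 and -5.13 lay above the lowest level well above background on those arrays, -6.24 and -5.56.

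Nr1i3 did not follow n-6 replicate 1 alone. Without that array the log2 difference was 2.23 for fish oil over n-6 colitis and -1.95 for n-6 colitis over healthy, beside 2.40 and -2.12 with it. The printed probe A_64_P109496 was well above background on 4 of 8 arrays, namely ALA replicate 1, both fish oil arrays and healthy replicate 1. Its levels correlated with those of A_64_P109497 at r = 0.911 over the 8 arrays, and it too was not well above background on the n-6 arrays. On this probe the n-6 signals lay below the lowest level well above background on those arrays, -6.24 and -5.56. With these levels in their place, fish oil colitis was at least 2.35-fold higher than n-6 colitis. As measured, the log2 difference was 2.07 (means -4.67 and -6.74, limma adjusted p = 0.438 in a fit over probes). The 2 probes thus gave the same order of the 4 groups apart from ALA and healthy, whose means were -5.08 and -5.33 on the fainter probe.

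**Figure D1:**
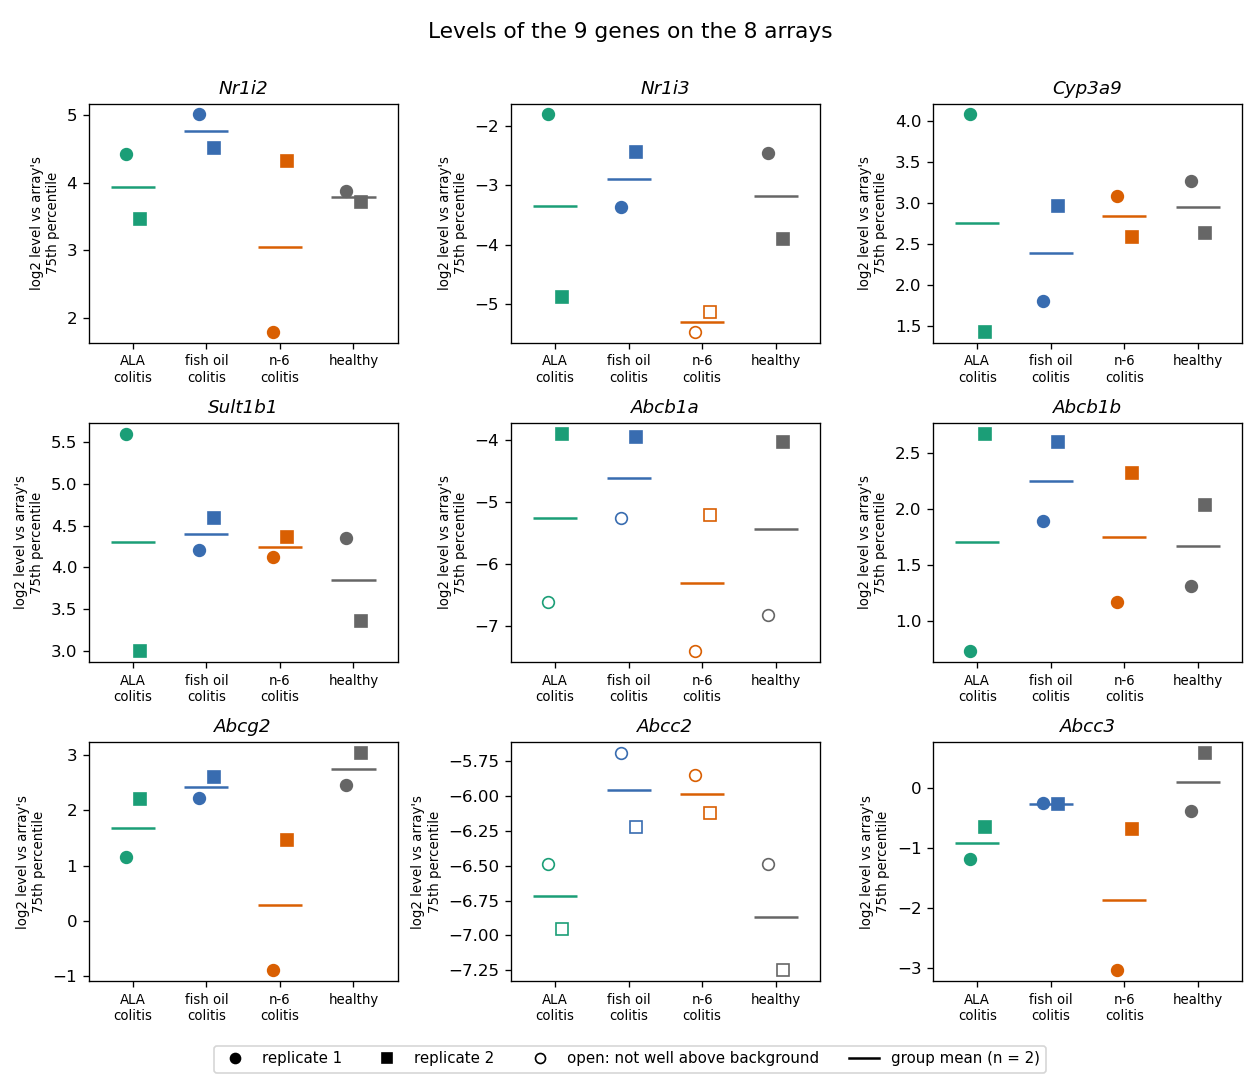
Level of each of the 9 genes on each of the 8 arrays, in log2 relative to the array's 75th percentile, 1 panel a gene with its own vertical range. Circles are replicate 1, squares replicate 2, open symbols not well above background, and bars the group means (n = 2). For Nr1i2, Abcg2 and Abcc3 the circle of n-6 colitis is the lowest point, while for Cyp3a9 and Sult1b1 both extremes are ALA colitis arrays.

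Cyp3a9 encodes a cytochrome P450 oxidase of the CYP3A family (probe on chr12:17204458-17204517, + strand). Its levels were 4.08 and 1.43 on the ALA colitis arrays, 1.81 and 2.97 on the fish oil colitis arrays, 3.09 and 2.59 on the n-6 colitis arrays, and 3.27 and 2.64 on the healthy arrays. ALA replicate 1 was the highest of the 8 arrays and ALA replicate 2 the lowest. That gap of 2.65 compares with a range of 0.57 between the 4 group means, which ran from 2.39 ± 0.819 in fish oil colitis to 2.96 ± 0.448 in healthy colon (SD, n = 2 each). The differences from healthy colon were -0.21 for ALA, -0.57 for fish oil and -0.12 for n-6 colitis (log2, SE 0.845 each, limma adjusted p = 0.972, 0.994 and 0.967). The 95% intervals were wide, from -2.20 to 1.79 for ALA, -2.57 to 1.43 for fish oil and -2.12 to 1.88 for n-6 colitis.

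Sult1b1 encodes a sulfotransferase that acts on phenols and thyroid hormones. Its probe A_64_P053257 (chr14:22031825-22031884, + strand) gave 5.60 and 3.0 on the ALA colitis arrays, 4.21 and 4.59 on the fish oil colitis arrays, 4.12 and 4.37 on the n-6 colitis arrays, and 4.35 and 3.36 on the healthy arrays. As for Cyp3a9, the 2 ALA arrays were the highest and the lowest of all 8, here 2.60 apart. The group means spanned 0.54, from 4.40 ± 0.268 in fish oil colitis to 3.86 ± 0.702 in healthy colon (SD, n = 2 each). A second probe, A_43_P12233 (chr14:22031815-22031874, + strand), shares 50 bases with it and followed it at r = 0.998 over the 8 arrays. Colitis groups lay 0.39 to 0.54 above healthy colon for this gene, within an SE of 0.798 (limma adjusted p = 0.869 to 0.994).

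The levels of Cyp3a9 and Sult1b1 moved together across the arrays (Pearson's r = 0.794, Spearman's rho = 0.595, 8 arrays). Their r was 0.814 without n-6 replicate 1, over 7 arrays. These are descriptions of 8 pooled arrays that share a slide, and the widest separation in them lies within the ALA group.

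Abcg2 and Abcc3 were the transporters whose group means differed most. Abcg2 encodes the breast cancer resistance protein, a pump of the luminal membrane (probe on chr4:87559902-87559961, + strand). Its levels were 1.16 and 2.20 on the ALA colitis arrays, 2.22 and 2.61 on the fish oil colitis arrays, -0.89 and 1.47 on the n-6 colitis arrays, and 2.46 and 3.04 on the healthy arrays. Neither n-6 array reached any fish oil or healthy array, and neither ALA array reached a healthy one. The means were 1.68 ± 0.737 in ALA colitis, 2.41 ± 0.276 in fish oil colitis, 0.29 ± 1.67 in n-6 colitis and 2.75 ± 0.406 in healthy rats (SD, n = 2 each).

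For Abcg2, the log2 difference of n-6 colitis from healthy colon was -2.46 (5.52-fold lower, SE 0.761, 95% interval -4.26 to -0.67), with an unadjusted p of 0.0143 and a limma adjusted p of 0.238. The difference from healthy colon was -1.07 for ALA colitis (limma adjusted p = 0.803) and -0.34 for fish oil colitis (limma adjusted p = 0.997). Against n-6 colitis, fish oil colitis was 2.12 higher (SE 0.761, unadjusted p = 0.0268, limma adjusted p = 0.409) and ALA colitis 1.39 higher (limma adjusted p = 0.915). Leaving out n-6 replicate 1 gave -1.28 for n-6 colitis over healthy and 0.94 for fish oil over n-6 colitis (limma adjusted p = 0.522 and 0.935), the same signs at smaller sizes. ALA over n-6 colitis was then 0.21. In the order healthy, fish oil, ALA and n-6 no neighbours differed beyond the spread by the test.

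Abcc3 encodes the multidrug resistance protein MRP3, which exports conjugates across the basolateral membrane (probe on chr10:82987122-82987181, - strand). It had -1.18 and -0.65 on the ALA colitis arrays, -0.26 and -0.27 on the fish oil colitis arrays, -3.04 and -0.69 on the n-6 colitis arrays, and -0.39 and 0.58 on the healthy arrays. Both n-6 arrays lay below every fish oil and healthy array but overlapped the ALA arrays. The means were -0.92 ± 0.373 in ALA colitis, -0.27 ± 0.00356 in fish oil colitis, -1.87 ± 1.66 in n-6 colitis and 0.10 ± 0.691 in healthy rats (SD, n = 2 each). The log2 difference of n-6 colitis from healthy colon was -1.96 (SE 0.744, 95% interval -3.72 to -0.20, unadjusted p = 0.0335, limma adjusted p = 0.306). Fish oil colitis lay 1.60 above n-6 colitis (SE 0.744, limma adjusted p = 0.431). Leaving out n-6 replicate 1 gave -0.79 for n-6 colitis over healthy and 0.42 for fish oil over n-6 colitis. ALA over n-6 colitis, 0.95 with both n-6 arrays, was then -0.23.

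Abcg2 and Abcc3 followed each other closely, with r = 0.976 and rho = 0.929 over the 8 arrays. Over the 7 arrays without n-6 replicate 1 their r was 0.901. The receptor Nr1i2 tracked them over 8 arrays (r = 0.676 with Abcg2 and 0.713 with Abcc3). These correlations were -0.322 and -0.204 without n-6 replicate 1, so the likeness of Nr1i2 to the 2 transporters rests on that array, and that between the transporters does not.

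**Figure D2:**
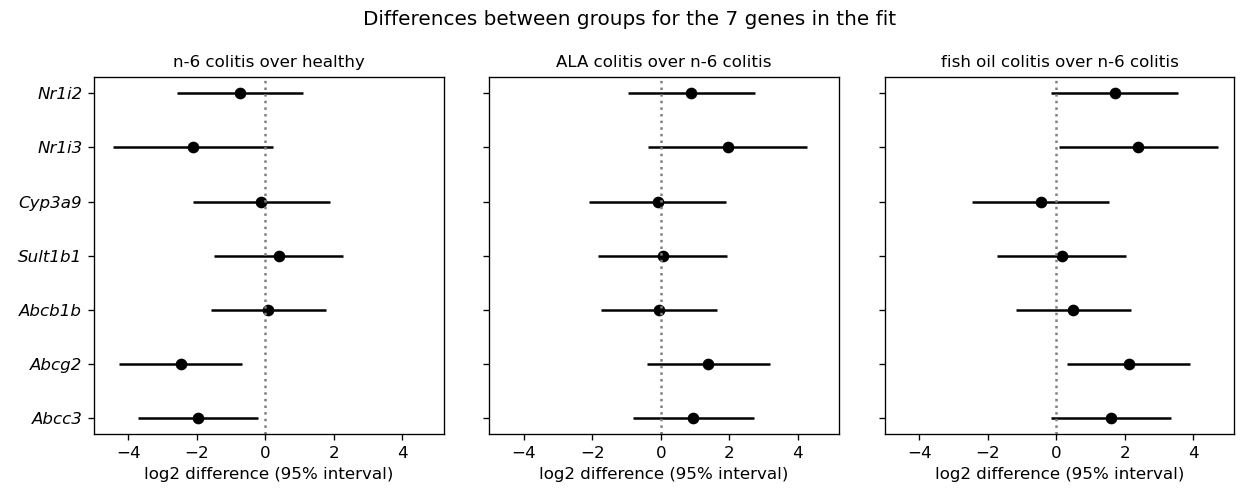
Differences between groups for the 7 genes in the fit, in log2, with their 95% intervals from limma (2 arrays a group, 8 in the fit). The panels show n-6 colitis over healthy, ALA colitis over n-6 colitis and fish oil colitis over n-6 colitis, and no gene passed an adjusted p of 0.05. The intervals of Abcg2 and Abcc3 lie below 0 in the first panel, those of Nr1i3 and Abcg2 above 0 in the last. Those of Nr1i3 rest on n-6 signals not well above background.

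Abcb1a and Abcb1b are the rodent genes for P-glycoprotein, a pump of the luminal membrane. The Abcb1a probe (chr4:21795859-21795918, + strand) was well above background on 3 of 8 arrays, namely replicate 2 of ALA colitis, of fish oil colitis and of healthy colon. It read -6.61 and -3.89 on the ALA colitis arrays, -5.26 and -3.94 on the fish oil colitis arrays, -7.41 and -5.20 on the n-6 colitis arrays, and -6.83 and -4.03 on the healthy arrays. In every group replicate 2 was the brighter array, and all 4 groups overlapped. The probe holds 16.7% G and C bases, the lowest share among the 12 probes. Because no group had it well above background on both arrays, Abcb1a entered no test. No fold is given, since each group mean includes at least 1 array not well above background.

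Abcb1b had 2 probes well above background on all 8 arrays, and they disagreed. On A_64_P010925 the levels were 0.73 and 2.67 in ALA colitis, 1.89 and 2.60 in fish oil colitis, 1.17 and 2.32 in n-6 colitis, and 1.31 and 2.03 in healthy colon. The groups overlapped throughout, and the second replicate was the higher array in each group, as for Abcb1a. On A_64_P039888 the levels were -0.05 and 1.0 in ALA colitis, -1.45 and -1.49 in fish oil colitis, 0.52 and 0.02 in n-6 colitis, and -0.19 and -1.68 in healthy colon. Here both fish oil arrays lay below every ALA and n-6 array. Over the 8 arrays the probes correlated at r = -0.176, although 35 of their 60 bases are the same.

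The sign differed between the probes in 4 of the 7 comparisons of Abcb1b. Fish oil colitis over n-6 colitis was 0.50 on A_64_P010925 (SE 0.71, limma adjusted p = 0.756) and -1.74 on A_64_P039888 (SE 0.569, limma adjusted p = 0.405), both in a fit over probes. ALA colitis over fish oil colitis was -0.54 on the first probe (limma adjusted p = 0.792) and 1.94 on the second (limma adjusted p = 0.455). Fish oil colitis over healthy was 0.58 and -0.54 on these probes, and ALA colitis over n-6 colitis -0.04 and 0.20. A_64_P010925 has 1 spot on each array and A_64_P039888 has 2. No direction is given for Abcb1b for that reason.

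**Figure D3:**
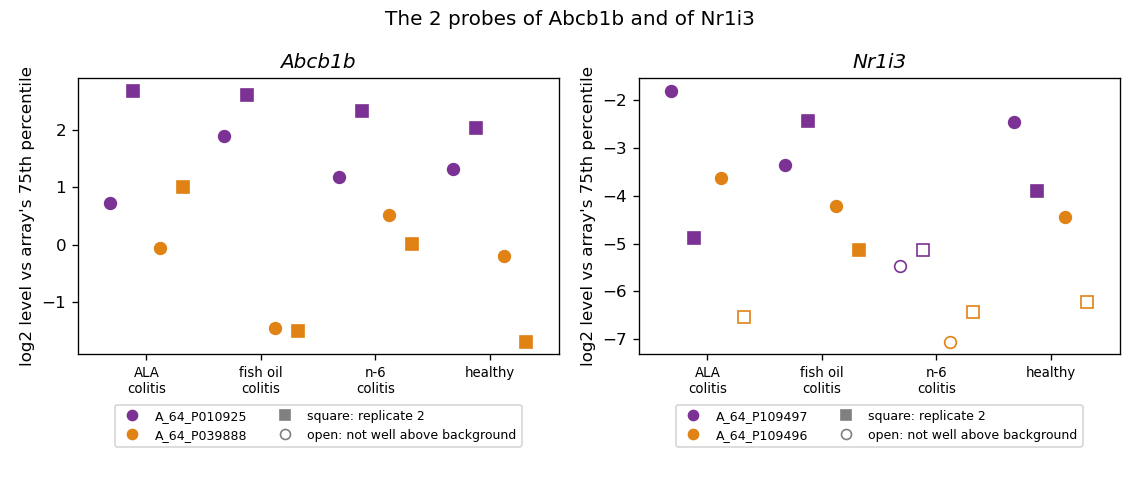
Levels of the 2 probes of Abcb1b and of Nr1i3 on the 8 arrays, in log2 relative to the array's 75th percentile, with circles for replicate 1, squares for replicate 2 and open symbols for signals not well above background. The Abcb1b probes, A_64_P010925 minus A_64_P039888, lie 0.65 apart on n-6 replicate 1 and 4.09 apart on fish oil replicate 2, while both Nr1i3 probes are lowest in n-6 colitis.

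Abcc2 encodes MRP2, the pump that exports conjugates across the luminal membrane. Its probe, on an unplaced stretch of chromosome 1 in rn4, has 10 spots on each array, and it was well above background on 0 of 8 arrays. The readings were -6.49 and -6.95 in ALA colitis, -5.69 and -6.22 in fish oil colitis, -5.85 and -6.12 in n-6 colitis, and -6.49 and -7.25 in healthy colon. They lie near or below the lowest signals that count as well above background, which ran from -6.77 to -4.70 over the arrays, so no order of the groups is read from them. Abcc2 was therefore not well above background in these pools, and no fold is given. The authors' deposited table lists it at -3.54 on n-6 replicate 1 and -4.38 on fish oil replicate 2, above the -5.85 and -6.22 found here.

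Across the 7 comparisons, 0 of the 7 genes tested passed a limma adjusted p of 0.05. For n-6 colitis over healthy, the call share over all 18171 genes was 0.0385%. It was 0% for ALA colitis over healthy, 0% for fish oil colitis over healthy and 0% for the mean of the 3 colitis groups over healthy. For ALA colitis over n-6 colitis it was 0.0275%, for fish oil colitis over n-6 colitis 0.0385%, and for ALA colitis over fish oil colitis 0%. With calls this rare among all genes, the absence of calls among 7 says little about these genes. An unadjusted p under 0.05 was reached by 2 members, Abcg2 and Abcc3, for n-6 colitis over healthy (14.3% of all genes). For fish oil colitis over n-6 colitis 2 reached it, Abcg2 and Nr1i3 (12% of all genes), Nr1i3 with n-6 signals not well above background. None reached it for ALA colitis over healthy (6.54% of all genes), fish oil colitis over healthy (3.9%), all colitis over healthy (8.02%), ALA colitis over n-6 colitis (5.81%) or ALA colitis over fish oil colitis (9.6%).

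Counts of genes whose arrays did not overlap between groups read the same way. Of the 7 genes, 3 did not overlap for n-6 colitis over healthy, namely Nr1i3, Abcg2 and Abcc3, against 45.5% of all genes. For ALA colitis over healthy it was 2, Abcg2 and Abcc3, against 40.6%, and for fish oil colitis over healthy 1, Nr1i2, against 38.8%. For all colitis over healthy it was 0, against 10.4%. For ALA colitis over n-6 colitis it was 1, Nr1i3, against 30%. For fish oil colitis over n-6 colitis it was 4, Nr1i2, Nr1i3, Abcg2 and Abcc3, against 46.7%. For ALA colitis over fish oil colitis it was 3, Nr1i2, Abcg2 and Abcc3, against 45.7%. None of these counts stands far above the share over all genes. The Nr1i3 entries against n-6 colitis rest on n-6 signals not well above background, and its probe passed the filter through the other groups.

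The median difference of the 7 genes was -0.74 for n-6 colitis over healthy, where that of all genes was 0.03. It was 1.60 for fish oil colitis over n-6 colitis and 0.89 for ALA colitis over n-6 colitis, where those of all genes were 0.01 and 0.07. The medians of the 7 genes without n-6 replicate 1 were -0.37, 0.42 and -0.07. The 3 comparisons share the n-6 arrays. For ALA and fish oil colitis over healthy, which do not use those arrays, the medians were -0.17 and 0.28. Each of the 7 genes varied between arrays of a group more than most genes did. Their residual SDs were 0.874 to 1.26 on the log2 scale, against a median of 0.433 over all genes, and between 87.4% and 96.3% of genes had a smaller one. The largest gap between 2 arrays of a group exceeded the whole range of the 4 group means for 6 of the 7 genes, the exception being Abcg2 (2.36 against 2.46).

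The levels of Nr1i2, Abcg2 and Abcc3 went with the epithelial markers of the same array. The median of the 12 epithelial markers was 4.40 and 4.49 in ALA colitis, 5.17 and 5.10 in fish oil colitis, 3.40 and 4.97 in n-6 colitis, and 4.64 and 4.97 in healthy colon. Over the 8 arrays its correlation was 0.886 with Nr1i2, 0.866 with Abcg2 and 0.906 with Abcc3. It was 0.55 with Abcb1b on probe A_64_P010925 alone, 0.385 with Nr1i3, -0.305 with Cyp3a9 and -0.0272 with Sult1b1. Without n-6 replicate 1, chosen after the data were seen, the first 3 were 0.535, 0.441 and 0.601 over 7 arrays. Abcg2 went still more closely with other lists, at r = 0.917 with the absorptive colonocyte markers and -0.945 with the endothelial markers (8 arrays each). For Abcc3 these were 0.873, less than with the epithelial list, and -0.916. These values for the other lists include n-6 replicate 1, and none is given without it. In a wall of many cell types, fewer epithelial cells and less RNA per epithelial cell cannot be told apart.

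The 12 epithelial markers summed to a log2 level of 8.92 and 8.73 in ALA colitis, 9.80 and 9.36 in fish oil colitis, 7.90 and 9.49 in n-6 colitis, and 9.10 and 9.0 in healthy colon. Only n-6 replicate 1 lay under the healthy arrays by more than 1. The 13 absorptive colonocyte markers, of which 9 were well above background on every array, had medians of 1.41 and 1.84 in ALA colitis, 1.25 and 2.91 in fish oil colitis, -0.61 and 1.65 in n-6 colitis, and 3.12 and 2.93 in healthy colon. By the median, all 6 colitis arrays lay below both healthy arrays, fish oil replicate 2 only just (2.91 against 2.93). By the summed log2 level of this list they did not. That sum was 8.69 and 8.82 in ALA colitis and 9.73 and 8.98 in fish oil colitis. It was 7.47 and 9.35 in n-6 colitis, and 9.07 and 9.36 in healthy colon. The 8 endothelial markers had medians of 0.03 and -0.44 in ALA colitis, -0.60 and -0.50 in fish oil colitis, 0.44 and -0.14 in n-6 colitis, and -0.33 and -0.51 in healthy colon, with n-6 replicate 1 the highest. The 12 leukocyte markers had medians of 0.29 and 1.0 in ALA colitis, -0.52 and -0.88 in fish oil colitis, 1.30 and 0.15 in n-6 colitis, and -1.48 and -1.20 in healthy colon, and none of them was below background on every array. All 6 colitis arrays lay above both healthy arrays on the leukocyte list, with n-6 replicate 1 the highest. The part of these shifts in the receptor and transporter levels was not tested.

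Set against the epithelial median of its own array, Abcg2 differed by -1.85 between n-6 colitis and healthy colon (means -3.90 and -2.05, log2 relative to the epithelial median). Abcc3 differed by -1.34 (means -6.05 and -4.71). Nr1i2 differed by -0.12 (means -1.13 and -1.01), and its range over the 8 arrays was 1.63 on this scale and 3.22 before. For other genes the range widened, to 3.05 for Cyp3a9 (2.65 before), 2.81 for Sult1b1 (2.60 before) and 3.89 for Nr1i3 (3.67 before). On this scale n-6 colitis minus healthy was 0.51 for Cyp3a9, 1.01 for Sult1b1 and -1.50 for Nr1i3. For Abcb1b it was 0.69 on probe A_64_P010925 alone. Several of these values rest on n-6 replicate 1, which had the lowest epithelial median. Cyp3a9 read -0.31 on n-6 replicate 1 and -2.38 on replicate 2, on either side of its healthy mean of -1.85. Nr1i2 read -1.61 and -0.65, on either side of its healthy mean of -1.01. Sult1b1 read 0.72 and -0.60 (healthy mean -0.95), and Abcc3 -6.44 and -5.66 (healthy mean -4.71). Nr1i3 read -8.87 and -10.1 (healthy mean -7.98). Fish oil colitis minus n-6 colitis was 1.18 for Abcg2, 0.65 for Abcc3 and 0.75 for Nr1i2 on this scale. The fish oil means of these genes were -2.72, -5.40 and -0.38, beside -3.50, -5.66 and -0.65 on n-6 replicate 2 alone. Abcg2 relative to the epithelium was -4.29 and -3.50 on the n-6 arrays, below all 6 other arrays, which ran from -3.24 to -1.93. These are values without a test, and on the epithelial list alone. The genes were not set against the absorptive colonocyte markers, with which Abcg2 went more closely. The medians of those markers were -0.61 and 1.65 in n-6 colitis and 3.12 and 2.93 in healthy colon.

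**Figure D4:**
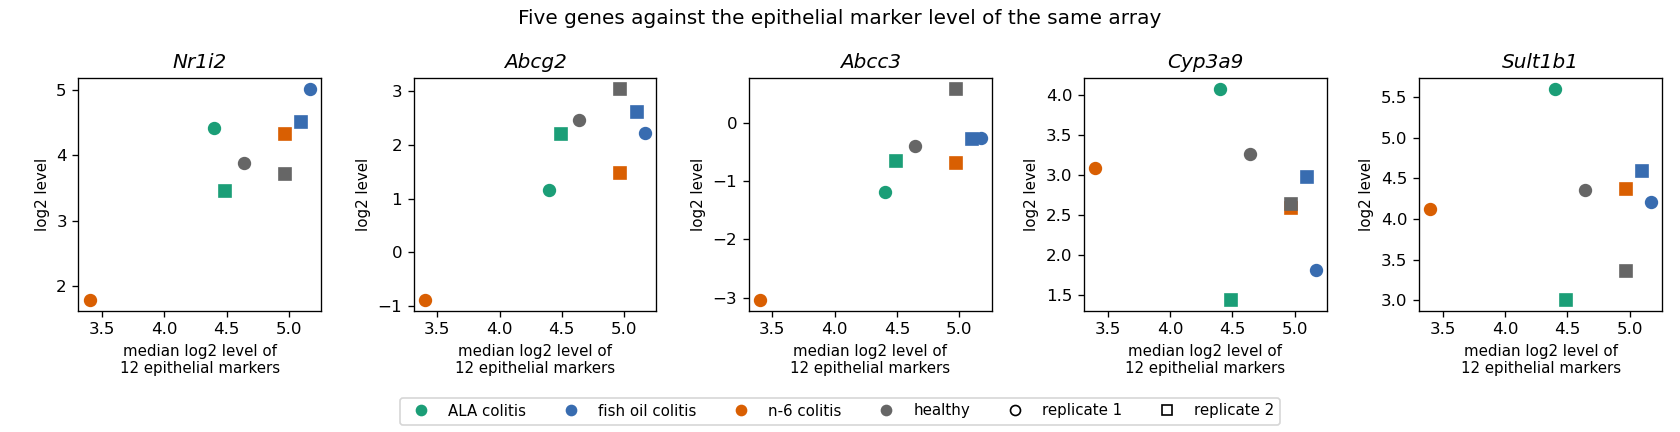
Level of Nr1i2, Abcg2, Abcc3, Cyp3a9 and Sult1b1 on each array (log2 relative to the array's 75th percentile) against the median log2 level of the 12 epithelial markers on the same array, coloured by group, with circles for replicate 1 and squares for replicate 2. In the first 3 panels n-6 replicate 1 sits alone at the lower left with an epithelial median of 3.40, and the other arrays lie between 4.40 and 5.17.

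Other genes of the same pathway were taken from 5 lists, and 0 of their tested genes passed the threshold in either direction in the 7 comparisons. Of 33 conjugation enzymes, 25 were tested. For n-6 colitis over healthy 5 had a positive and 20 a negative difference, with a median of -1.10 against 0.03 over all genes. An unadjusted limma p under 0.05 was reached by 9 of the 25, against 14.3% of all genes. With n-6 replicate 2 alone that median was -0.45. For fish oil colitis over n-6 colitis, 20 were positive and 5 negative, with a median of 0.94, which was 0.50 against n-6 replicate 2 alone. On n-6 replicate 1, 14 of the 25 had their lowest level, against 21.8% of all genes. Of the 3 with the brightest probes, the glucuronosyltransferase Ugt1a6 had 4.96 and 4.96 in ALA colitis, 6.12 and 5.46 in fish oil colitis, 3.01 and 5.27 in n-6 colitis, and 5.37 and 5.27 in healthy colon. The microsomal glutathione transferase Mgst3 had 4.73 and 4.73 in ALA colitis, 5.79 and 5.11 in fish oil colitis, 2.27 and 5.24 in n-6 colitis, and 4.95 and 5.35 in healthy colon. For both, n-6 replicate 1 was far the lowest and n-6 replicate 2 lay among the other groups. The thiopurine methyltransferase Tpmt stayed between 3.81 and 4.31 on all 8 arrays.

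Of 23 oxidation enzymes, 13 were tested. The median difference was -0.61 for n-6 colitis over healthy (-0.10 with n-6 replicate 2 alone). For fish oil colitis over n-6 colitis it was 0.64 (0.28 with n-6 replicate 2 alone). In these comparisons 3 and 1 had an unadjusted limma p under 0.05, against 14.3% and 12% of all genes. The epoxygenase Cyp2j4 had 2.81 and 3.07 in ALA colitis, 2.98 and 3.36 in fish oil colitis, 2.35 and 2.53 in n-6 colitis, and 3.91 and 4.41 in healthy colon. All 6 colitis arrays lay below both healthy arrays, and both n-6 arrays were the lowest. Its difference of n-6 colitis from healthy colon was -1.72 (SE 0.325, limma adjusted p = 0.128). Cyb5a, an electron donor for cytochromes P450, lay 0.86 higher in fish oil colitis than in n-6 colitis (limma adjusted p = 0.428), and 0.46 higher than n-6 replicate 2 alone. The retinal dehydrogenase Aldh1a1 differed between those groups by -0.52 (limma adjusted p = 0.725).

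All 14 receptor partners and coregulators were tested. An unadjusted limma p under 0.05 was reached by 4 for n-6 colitis over healthy and 2 for fish oil colitis over n-6 colitis, against 14.3% and 12% of all genes. The median differences were -0.29 and 0.33. With n-6 replicate 2 alone both medians were 0.12, which turns the sign of the first. The bile acid receptor gene Nr1h4 (FXR) had 3.02 and 3.85 in ALA colitis, 3.98 and 3.32 in fish oil colitis, 0.12 and 3.73 in n-6 colitis, and 2.64 and 4.0 in healthy colon, again with n-6 replicate 1 alone at the bottom. The chaperone Hsp90aa1, which helps hold receptors such as CAR in the cytoplasm, ran the other way, with 4.68 and 3.57 in n-6 colitis and 3.36 and 3.18 in healthy colon (difference 0.85, limma adjusted p = 0.411). Its difference was 0.30 with n-6 replicate 2 alone.

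Of 17 other efflux transporters 13 were tested. Their median differences were 0.02 for n-6 colitis over healthy and -0.07 for fish oil colitis over n-6 colitis. The medians were -0.04 and -0.41 with n-6 replicate 2 alone. In these comparisons 1 and 2 had an unadjusted limma p under 0.05, against 14.3% and 12% of all genes. Abcc5, an exporter of nucleotides and conjugates, stayed between 1.70 and 2.29 on the 8 arrays. Slc51b, a subunit of the basolateral bile acid exporter, had 1.93 and 3.48 in ALA colitis, 3.95 and 2.91 in fish oil colitis, -1.27 and 4.23 in n-6 colitis, and 3.71 and 4.85 in healthy colon. Abcc1, the gene of MRP1, ran from 0.72 to 2.14 over the arrays, and its groups overlapped for n-6 colitis over healthy. Of 20 uptake transporters 14 were tested. In the same comparisons 6 and 1 had an unadjusted limma p under 0.05, against 14.3% and 12% of all genes, and the medians were -0.21 and 0.07. Both medians changed sign with n-6 replicate 2 alone, to 0.17 and -0.47. The organic anion transporter Slco4a1 had 0.88 and 1.42 in ALA colitis, -0.32 and 0.62 in fish oil colitis, 2.19 and 0.76 in n-6 colitis, and 0.32 and -0.31 in healthy colon. Its n-6 mean lay 1.47 above the healthy mean (limma adjusted p = 0.315), and n-6 replicate 2 alone lay 0.76 above it. Slc22a18 differed by -0.40 in that comparison and by 0.64 with n-6 replicate 2 alone, and the nucleoside transporter Slc29a1 by -0.37 and -0.23.

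The promoters were read from RefSeq, assembly GRCr8, 250 bases before to 50 after each gene's start, and 8 of the 9 genes had an entry. They were searched on both strands for the half-sites AGGTCA and AGTTCA that PXR and CAR bind as pairs with retinoid X receptors. At least 1 of them was found for 4 of the 8 genes, namely Nr1i2, Abcc2, Cyp3a9 and Sult1b1, against 27.9% of 33469 rat promoters. AGGTCA alone is in 16.2% of them and AGTTCA in 14.5%. A pair of half-sites, as a direct repeat spaced by 3 or 4 bases or an everted repeat spaced by 6 or 8, was found in 0.0807% of all promoters and in that of 1 member, Abcc2. Its everted repeat lies at -191 to -172 from the start and reads TGAACTcttaaccaAGTTCA, with the half-sites in capitals. An everted repeat with this spacing in the rat Abcc2 promoter is known as an element bound by PXR, CAR and FXR. The search included that spacing, so finding the pair in Abcc2 was not an independent result. The core of the site bound by the aryl hydrocarbon receptor, GCGTG, was found for 1 of the 8, Abcg2, against 29.7% of all promoters.

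The 250 bases before the start of Abcc2 are printed for that pair, and those of Cyp3a9 and Sult1b1 because their levels moved together across arrays. Half-sites are in capitals.
Abcc2: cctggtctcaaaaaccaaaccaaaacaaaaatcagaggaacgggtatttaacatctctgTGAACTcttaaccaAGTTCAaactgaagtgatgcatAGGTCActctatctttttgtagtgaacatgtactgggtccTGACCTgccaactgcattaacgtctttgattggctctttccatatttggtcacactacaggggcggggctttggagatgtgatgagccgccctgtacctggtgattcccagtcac
Cyp3a9: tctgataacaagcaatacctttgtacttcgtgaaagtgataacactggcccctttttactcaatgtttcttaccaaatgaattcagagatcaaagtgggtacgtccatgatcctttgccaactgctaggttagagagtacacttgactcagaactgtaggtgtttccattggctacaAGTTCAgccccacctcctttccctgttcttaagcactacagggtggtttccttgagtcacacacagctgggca
Sult1b1: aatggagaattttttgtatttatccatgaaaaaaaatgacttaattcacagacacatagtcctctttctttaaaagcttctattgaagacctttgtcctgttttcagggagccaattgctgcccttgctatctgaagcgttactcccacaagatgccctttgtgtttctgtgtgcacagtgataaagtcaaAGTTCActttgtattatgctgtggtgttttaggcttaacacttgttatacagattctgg
The Cyp3a9 half-site starts at position -73 and the Sult1b1 half-site at -59 from the gene's start. A match of letters is a description and not a bound site. Abcc2, the gene with the pair, was not well above background on any array. Whether a receptor acts on any of these promoters was not tested.

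The named genes whose levels were most like each member over the 8 arrays were found by Pearson's r among 10266 genes well above background on every array. For Abcg2 they were Lrrc75a (r = 0.995) and Mal2 (0.99), and for Abcc3 Gpa33 (0.994), which encodes an antigen of the intestinal epithelium, and Fam234a (0.993). For Nr1i2 they were Ambra1 (0.986) and Wasl (0.984). For Cyp3a9, Abhd13 (0.966) is given. For Sult1b1 they were Cstb (0.968) and Arhgap10 (0.967), and for Abcb1b Skic2 (0.939) and Nras (0.937). The Abcb1b values are those of probe A_64_P010925 alone, which the gene's other probe did not follow. These values describe 8 arrays of 1 slide, n-6 replicate 1 among them.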

How the data were processed

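Total colon RNA was hybridised to 8 Agilent 1-colour (Cy3) arrays, 2 a group. The scanner files hold spot intensity values made by Agilent Feature Extraction 11.5.1.1, per the file headers, with background subtracted. The deposited value table holds log2 values, and no source used here states how it joins probes. Set against the scanner values its r was 0.971 to 0.979, which bears out its log2 scale and direction, and its 75th percentiles lie at 0.0032 to 0.00898. Its column medians are -2.89 and -3.15 (ALA), -2.93 and -3.10 (fish oil), -3.14 and -3.15 (n-6), and -2.93 and -3.18 (healthy).

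Control and outlier spots were dropped, spots of a probe averaged, and each array's 75th percentile of the log2 intensity subtracted. Probes that cleared background on both arrays in 1 group or more were kept (20801 of 30367), and a gene was its probe with the highest mean signal (18171 genes, 2365 with several probes). Names came from RefSeq tables of GRCr8 (18355 probes by accession, 445 by another accession, 410 by synonym, 2535 by the file's symbol, 8622 by none). All 8 arrays were fitted with limma 3.58.1 in R 4.3.3 (4 residual and 3.01 prior degrees of freedom), with Benjamini-Hochberg adjustment over all genes, and the fit was tested on simulated data. The number of arrays limits the precision. Replicate numbers are shared between groups, but same-numbered arrays deviated together only in part (correlations -0.168 to 0.47), so the fit has no block. Genes, lists and naming rules (all 9 members, the 3 brightest genes of each list, the 2 genes most like each member) were chosen with earlier results of these data known. Some genes that these rules select are not reported here. Alternatives were normexp background correction, quantile normalization, no filter, the deposited table, a replicate block, a trended robust prior, the mean of a gene's probes, only the groups compared, and leaving out each array.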

Additional observations from a re-analysis of the deposited data

How the results depend on the processing

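Under every alternative run, 0 of the 7 genes tested was called in each comparison. Of 385 alternative differences with all arrays, 14 changed sign and the lowest limma adjusted p was 0.152, and of 392 with 1 array left out 45 changed sign and the lowest was 0.0539. The causes were not tested, except that fewer arrays or genes enter some fits. With the replicate block, 13 genes were called for n-6 colitis over healthy and 0 for ALA over n-6, and no call of a member changed. The 7, 5 and 7 genes called for n-6 over healthy, ALA over n-6 and fish oil over n-6 became 0 in each with only the groups compared, which could not be run apart for all colitis over healthy. For n-6 over healthy the count was 69 with normexp, 4 without filter, 2 in the deposited table and 29 with the trended robust prior. ALA over n-6 had 0 without filter, in the deposited table and with the mean of probes, fish oil over n-6 had 4 with normexp, and fish oil over healthy and ALA over fish oil had 1 each with quantile normalization. Leaving out 1 array gave 0 to 23 for n-6 over healthy, 0 to 6 for fish oil over n-6, 0 for ALA over n-6, and 0 to 1 for ALA over healthy and for ALA over fish oil. These fits take a lone array to vary like the others.

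Sign changes with all arrays were small outside Abcb1b. With normexp, Nr1i3 was 0.19 for ALA over healthy and 0.10 for all colitis over healthy, and Sult1b1 0.05 for ALA over fish oil. With quantile normalization, Abcb1b was -0.02 for n-6 over healthy and 0.04 for ALA over n-6, and Nr1i2 -0.05 for all colitis over healthy. With the mean of probes, Nr1i3 was 0.04 for ALA over healthy, and Abcb1b 0.08 for ALA over n-6, -0.62 for fish oil over n-6 and 0.70 for ALA over fish oil. In the deposited table, Abcb1b was -0.24 for fish oil over healthy, 0.14 for ALA over n-6, -1.02 for fish oil over n-6 and 1.16 for ALA over fish oil. Abcc2 read -3.54 on n-6 replicate 1 and -4.38 on fish oil replicate 2 there, against -5.85 and -6.22 here.

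Leaving out 1 array at a time moved these differences across 0. For n-6 over healthy, Nr1i2 ran from -2.01 to 0.53, Abcb1b from -0.50 to 0.65, Cyp3a9 from -0.44 to 0.20 and Sult1b1 from -0.11 to 0.88. For ALA over healthy, Nr1i2 ran from -0.33 to 0.62, Nr1i3 from -1.71 to 1.37, Abcb1b from -0.94 to 1.0, Cyp3a9 from -1.53 to 1.12 and Sult1b1 from -0.86 to 1.74. For fish oil over healthy, Nr1i3 ran from -0.45 to 1.01, Abcc3 from -0.85 to 0.13 and Cyp3a9 from -1.15 to 0.01. For all colitis over healthy, Nr1i2 ran from -0.30 to 0.55, Nr1i3 from -1.40 to 0.06, Abcb1b from -0.13 to 0.59, Cyp3a9 from -0.74 to 0.14 and Sult1b1 from -0.04 to 0.95. For ALA over n-6, Nr1i2 ran from -0.38 to 2.15, Abcb1b from -1.02 to 0.93, Abcc3 from -0.23 to 2.12, Cyp3a9 from -1.41 to 1.24 and Sult1b1 from -1.24 to 1.36. For fish oil over n-6, Abcb1b ran from -0.08 to 1.08, Cyp3a9 from -1.03 to 0.13 and Sult1b1 from -0.03 to 0.35. For ALA over fish oil, Nr1i3 ran from -1.99 to 1.09, Abcb1b from -1.51 to 0.43, Cyp3a9 from -0.96 to 1.69 and Sult1b1 from -1.40 to 1.20. The differences of Abcg2 kept their sign in all of these fits. Signal near background limits Nr1i3, Abcb1a and Abcc2.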
